A study of Homo sapiens with 24 samples.

Results

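The double knockdown of MYBL2 and FOXM1 was set against the knockdown of MYBL2 alone in A549 cells, a human lung adenocarcinoma line. The quantity measured was a difference of differences per gene, the log2 change of siBoth against its own control libraries (siControl_Both) less the log2 change of siMYBL2 against siControl. All libraries of these 4 groups entered by their labels, 4 siMYBL2, 4 siControl, 3 siBoth and 3 siControl_Both, which are 14 of the 24 libraries of the series. siMYBL2 cells received small interfering RNA against MYBL2, siBoth cells received those against MYBL2 and FOXM1, and both control groups received a negative control siRNA. The labels give 25 nM of siRNA and do not say whether siBoth cells received this amount of each or in sum. They also give DMEM or RPMI for the cultures without saying which library had which. The comparison asks which genes and programs stood further down, or further up, when FOXM1 was silenced besides MYBL2. Single and double knockdowns were separate experiments with separate controls, so the addition of the FOXM1 siRNA and the change of experiment cannot be told apart in this difference.

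MYBL2 (B-Myb) is a MYB-family transcription factor that joins the MuvB core complex in S phase and helps to turn on genes of the G2 and M phases. FOXM1 is a forkhead factor that is recruited to many of the same promoters later in the cycle, through the CHR element that MuvB recognises, and drives mitotic cyclins, kinesins and centromere proteins. In lung adenocarcinoma both are high in dividing tumour cells, and FOXM1 is itself a gene of this program.

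Each library held between 23065227 and 28880535 read pairs counted on genes. Library composition followed the experiment: 1.97 to 2.40% of read pairs were not aligned in siControl and siMYBL2 and 7.68 to 10.9% in siControl_Both and siBoth, and 9.25 to 9.60% and 7.88 to 8.12%, in the same order, were ambiguous between genes. Within the double-knockdown experiment siBoth replicate 2 stood apart, with 3.85% of its counts on mitochondrial genes, where the siBoth libraries reached 7.12% and the siControl_Both libraries spanned 5.17 to 6.82%. All 5 markers of a lung epithelial line were detected. Summed, they stood at 5790 to 7678 CPM (counts scaled to library size by edgeR's TMM factors) in the single-knockdown experiment and at 3797 to 5688 CPM in the other. In every library 3 of 4 immune and 2 of 5 fibroblast markers stayed under 1 CPM, and the endothelial markers summed to at most 4.57 CPM. Fibroblast markers summed to 20.4 to 41.2 CPM in the single-knockdown experiment and 30.8 to 59.3 CPM in the other. Immune markers summed to 4.27 to 7.56 CPM in siControl, 8.23 to 15.2 in siMYBL2, 4.30 to 7.69 in siControl_Both and 10.1 to 12.3 in siBoth. RNA was measured in bulk, so fewer cells that express a gene and less RNA per cell cannot be told apart.

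Both siRNA targets were examined first. MYBL2 (chr20:43667019-43716495 in hg38, GENCODE V44) was low in siMYBL2 and in siBoth alike. Its level was 148, 159, 180.5 and 134 in siControl, 5.17, 8.77, 7.04 and 4.59 in siMYBL2, 157, 194 and 172 in siControl_Both and 6.21, 9.38 and 9.85 in siBoth, in CPM with replicates in the order of their numbers. Every knockdown library lay far below every control library, with 4.09% of the control level left in siMYBL2 and 4.82% in siBoth, and the log2 effects differed by 0.23 ± 0.15 (SE), adjusted p = 0.403 in edgeR's quasi-likelihood test. This difference did not pass the test.

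FOXM1 (chr12:2857680-2877174) had the lowest adjusted p of all genes. It stood at 129, 131, 140.5 and 109 in siControl, 71.8, 84.0, 90.0 and 58.0 in siMYBL2, 126, 145 and 141 in siControl_Both and 10.2, 14.3 and 15 in siBoth (CPM). The siMYBL2 libraries lay between 58.0 and 90.0 CPM and below each siControl library, while no siBoth library exceeded 15 CPM. The log2 effects were -0.76 ± 0.06 (SE) in siMYBL2 and -3.40 ± 0.08 in siBoth, a difference of -2.64 ± 0.10 (SE), adjusted p = 4.72e-11. In the FOXM1 knockdown alone the log2 effect was -3.38 ± 0.05. Exons of FOXM1 share 15.9% of their bases with a gene of the opposite strand, and the strand setting of the counting is not given in the sources used here.

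Across the transcriptome, 16933 genes passed the filter on low counts and were tested. A gene was called when its Benjamini-Hochberg adjusted p was under 0.05 and its difference exceeded 1.5-fold. By that rule 219 genes (1.29%) were lower in siBoth than the siMYBL2 effect and 55 (0.325%) were higher, while the median difference over all genes was 0.00. With the adjusted p alone 812 genes (4.8%) were lower and 401 (2.37%) higher. The replicate number within each experiment was a block in this fit, and without it 26 genes were called lower and 0 higher at 1.5-fold, 26 of them among the 274 above. Of genes named below, THOC7, KIF20A, CDKN3, NEK2, WWTR1, FKBP5, NECAP1, RMND5A, EDEM3 and SUZ12 were among these 26, as was FOXM1. At an unadjusted p under 0.05 there were 3735 genes.

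**Figure D1:**
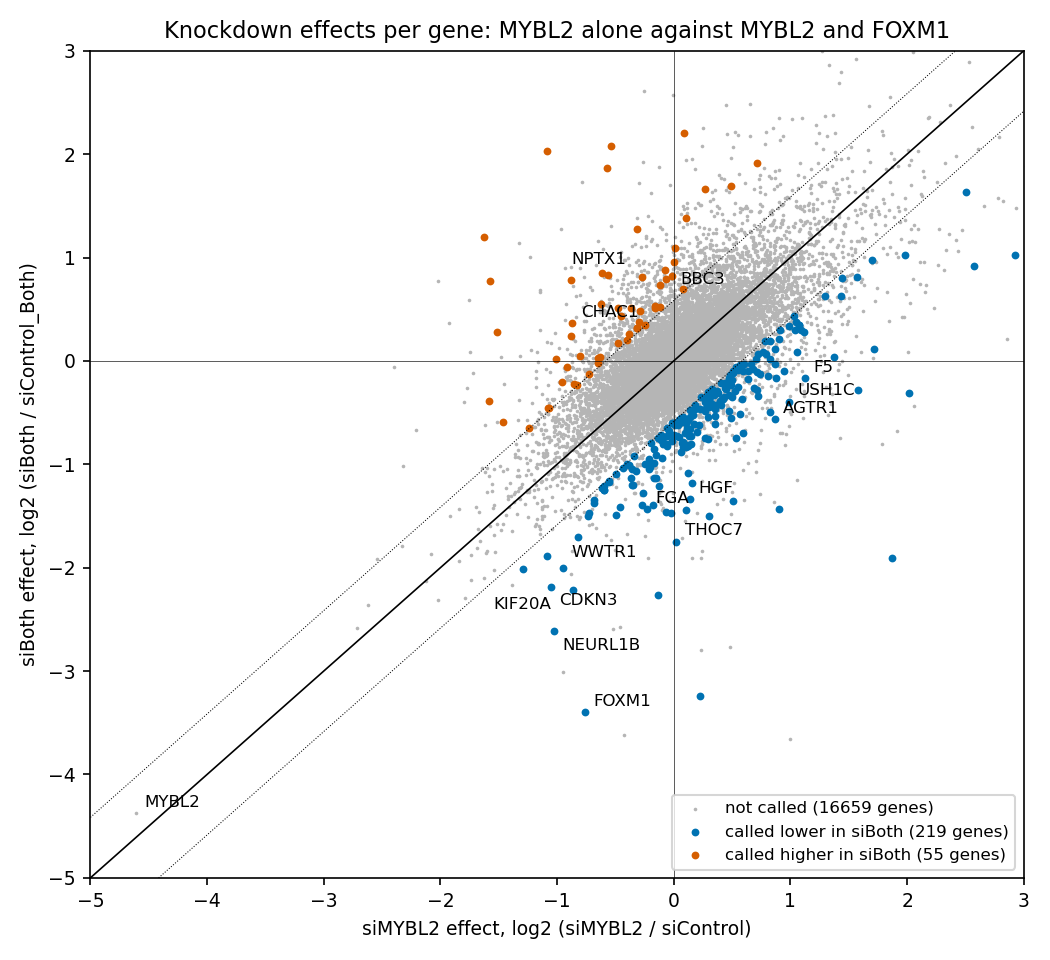
Fitted log2 effect of siMYBL2 (x axis) and of siBoth (y axis) for each of the 16933 genes tested, with equal effects on the solid line and a 1.5-fold difference on the dotted lines. Blue points are the 219 genes called lower and orange points the 55 called higher; 16 genes, 1 of them called, lie outside the axes, which run from -5 to 3. FOXM1 and NEURL1B lie far below the line while MYBL2 lies close to it.

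A lower call did not always describe a deeper loss. Of the 219 genes called lower, 64 had estimates below control in both knockdowns and so lay further down in siBoth, 124 lay above control in siMYBL2 and below it in siBoth, and 31 lay above control in both with a smaller rise in siBoth. Their median change was 0.14 to 0.30 (log2) over the 4 siMYBL2 pairs and -0.58 to -0.46 over the 3 siBoth pairs, a pair being a knockdown library and the control library of the same number. Of the 55 genes called higher, 36 lay below control in siMYBL2 and above it in siBoth, 8 lay above control in both and 11 below control in both. These values describe the called genes, which were selected on the same contrast.

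**Figure D2:**
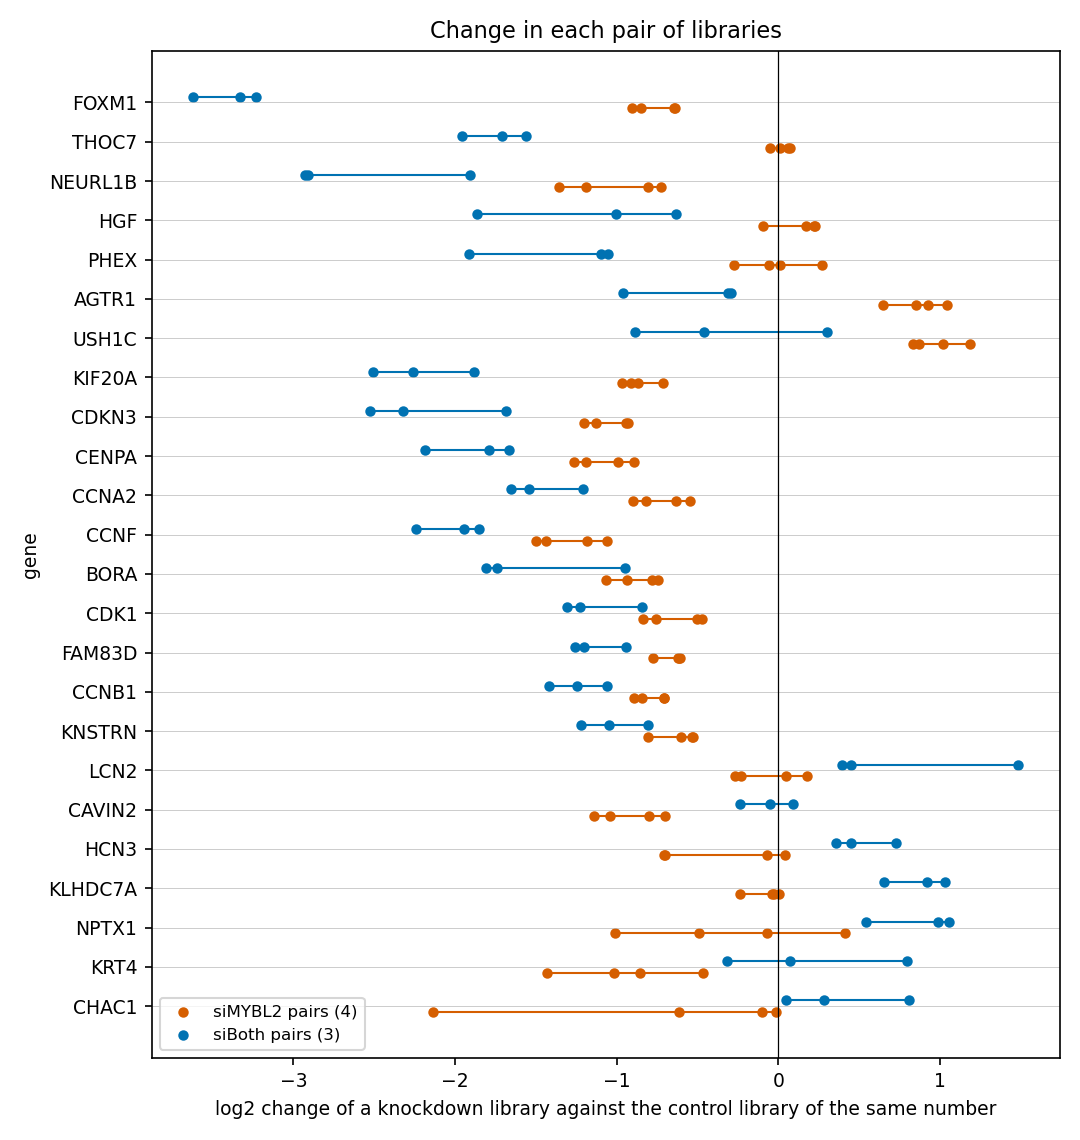
Log2 change of each knockdown library against the control library of the same number, for FOXM1, the target genes named in the study and genes with large differences. Orange points are the 4 siMYBL2 pairs and blue points the 3 siBoth pairs, with lines from the lowest to the highest pair. For THOC7 the siMYBL2 pairs lie near 0 and the siBoth pairs between -1.96 and -1.56.

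Of 10 genes that the study names as targets of MYBL2 and FOXM1, most of them mitotic, 5 were called lower in siBoth. These genes were picked by the study with these libraries in view, so their direction is no independent evidence. The 5 were NEURL1B, CDKN3, CENPA, CCNA2 and CCNF, 0 were called higher and 9 of the 10 were lower by the adjusted p alone. Without the replicate block 1 of them was called, and without siBoth replicate 3 there were 7. Their median difference was -0.67 (log2). In the siMYBL2 pairs the median of the 10 ran from -0.89 to -0.73, and in the siBoth pairs from -1.73 to -1.14.

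CDKN3, a phosphatase of cyclin-dependent kinases that peaks in mitosis, stood at 44, 42.2, 45.7 and 42.2 in siControl, 19.1, 21.9, 24.0 and 19.3 in siMYBL2, 34.9, 38.8 and 28.9 in siControl_Both and 6.93, 6.67 and 8.95 in siBoth (CPM). The siBoth libraries lay at no more than 8.95 CPM and the siMYBL2 libraries at 19.1 CPM or more. Its log2 difference was -1.13 ± 0.15 (SE), adjusted p = 0.000383. CENPA, the histone H3 variant that marks centromeres, measured 29.2, 26.7, 31.7 and 33.7 in siControl, 12.7, 14.3, 15.9 and 14 in siMYBL2, 20.5, 24.9 and 23.5 in siControl_Both and 6.4, 5.42 and 6.72 in siBoth. Its pairs changed by -1.19, -0.89, -0.99 and -1.26 in the siMYBL2 pairs and -1.66, -2.18 and -1.79 in the siBoth pairs, with no overlap, and its difference was -0.80 ± 0.14 (SE), adjusted p = 0.00246. For CCNA2, which encodes cyclin A2 of S and G2 phase, the pairs changed by -0.82, -0.55, -0.63 and -0.90 in the siMYBL2 pairs and -1.54, -1.65 and -1.21 in the siBoth pairs, and the difference was -0.75 ± 0.11 (SE), adjusted p = 0.000691. CCNF encodes the cyclin F substrate receptor of an SCF ubiquitin ligase. Its pairs changed by -1.5, -1.19, -1.06 and -1.44 in the siMYBL2 pairs and -2.24, -1.94 and -1.85 in the siBoth pairs, a difference of -0.72 ± 0.13 (SE), adjusted p = 0.00234.

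NEURL1B, an E3 ubiquitin ligase gene of the neuralized family, was low in every library. It stood at 9.28, 7.55, 13.3 and 10.5 in siControl, 3.57, 4.28, 5.80 and 6.30 in siMYBL2, 8.88, 8.02 and 7.18 in siControl_Both and 1.10, 1.00 and 1.86 in siBoth (CPM), and its siBoth libraries did not overlap with any other group. The difference was -1.59 ± 0.25 (SE), adjusted p = 0.00121. The siFOXM1 effect was -2.89 ± 0.13, beside -1.02 in siMYBL2 and -2.61 in siBoth. The remaining 5 were not called. FAM83D, a spindle protein that carries casein kinase 1, differed by -0.48, KNSTRN, a kinetochore protein, by -0.41, CCNB1, cyclin B1, by -0.45 and CDK1, its kinase, by -0.49, each past the adjusted p and short of 1.5-fold. BORA, an activator of Aurora A and PLK1, differed by -0.62 ± 0.20 (SE), adjusted p = 0.071, and its pairs overlapped.

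Next, 5 lists of mitotic genes were counted, each to be read beside the 1.29% of all genes called lower. These lists hold all the targets above but NEURL1B. The calls of CDKN3, CCNA2, CCNF and CENPA in them are therefore the calls already given, and they add no further evidence. KIF20A, the kinesin of the central spindle, had the largest difference among their members. It measured 78.9, 79.4, 102 and 79.1 in siControl, 41.9, 43.4, 62.0 and 40.3 in siMYBL2, 105, 109.9 and 83.5 in siControl_Both and 18.4, 22.9 and 22.6 in siBoth (CPM). Every siMYBL2 library lay below every siControl library, and every siBoth library lay below every siMYBL2 library, although siControl_Both reached the highest levels. Its difference was -1.35 ± 0.12 (SE), adjusted p = 3.51e-06, 2.56-fold. KIF20A was 1 of 13 mitotic kinesins called lower and none was called higher. KIF14 and KIF23 differed by -0.40 and -0.34, and the median of the 13 was -0.26.

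Of 30 mitotic kinases, cyclins and phosphatases 4 were called lower (CDKN3, NEK2, CCNA2 and CCNF) and 0 higher, with a median difference of -0.06. NEK2, a centrosome kinase, changed by -0.51, -0.25, -0.12 and -0.56 in the siMYBL2 pairs and -1.11, -1.43 and -1.06 in the siBoth pairs, a difference of -0.84 ± 0.12 (SE), adjusted p = 0.00064. Of 29 spindle and cytokinesis genes 3 were called lower and 0 higher, with a median of -0.16. They were TROAP (-0.88 ± 0.11 (SE), adjusted p = 0.000251), a spindle-associated protein, ASPM (-0.66 ± 0.11 (SE), adjusted p = 0.00235), which acts at spindle poles, and CKAP2 (-0.59 ± 0.10 (SE), adjusted p = 0.0022), a microtubule-binding protein. The ASPM and CKAP2 calls were lost after correction for GC content and length, at -0.40 and -0.46, and both were also lost without the second double-knockdown pair. The spindle count was 5 without siBoth replicate 3, 1 without its replicate 2 and 0 without the replicate block. Among 32 centromere and kinetochore genes CENPA was the 1 called. CENPF, a kinetochore protein of G2 and M, differed by -0.47 and SKA2, a subunit of the Ska complex, by -0.40, and the median was -0.09. None of 13 genes of the condensin, topoisomerase and proliferation list was called. MKI67, which encodes Ki-67, came closest at -0.58 ± 0.10 (SE), adjusted p = 0.00193, short of 1.5-fold, with pair changes of -0.98, -0.77, -0.78 and -1.24 in the siMYBL2 pairs and -1.47, -1.56 and -1.53 in the siBoth pairs. NCAPG and SMC4 of the condensins differed by -0.28 and -0.25.

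Of 49 G1/S and replication genes 1 was called lower and 0 higher, beside 1.29% and 0.325% of all genes, and the median difference was 0.10, with effects of -0.41 in siMYBL2 and -0.32 in siBoth. The 1 was RRM2 (-0.62 ± 0.11 (SE), adjusted p = 0.00284), the small subunit of ribonucleotide reductase, and its call was lost after GC and length correction at -0.56. POLD1, the catalytic subunit of polymerase delta, differed by 0.37 and MCM7 of the replicative helicase by 0.31, both past the adjusted p alone. Of 17 homologous recombination and Fanconi genes measured none was called, and RAD51AP1, BRIP1 and BRCA2 differed by -0.39, -0.27 and -0.23. None of 14 MuvB, DREAM and MYB family genes was called either. E2F4, the repressor E2F of the DREAM complex, differed by 0.40 ± 0.08 (SE), adjusted p = 0.00654, MYBL1 by -0.29 and RB1 by -0.19.

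Of 11 CDK inhibitors and G1 cyclins measured 1 was called lower and 1 higher, beside 1.29% and 0.325% of all genes. CDK6, a G1 kinase, changed by 0.23, -0.07, 0.05 and 0.19 in the siMYBL2 pairs and -0.43, -0.73 and -0.59 in the siBoth pairs, a difference of -0.68 ± 0.09 (SE), adjusted p = 0.000272. CCND3, cyclin D3, changed by -1.23, -0.82, -1.37 and -1.53 in the siMYBL2 pairs and -0.81, -0.75 and -0.38 in the siBoth pairs and was called higher (0.59 ± 0.14 (SE), adjusted p = 0.0151), with less of a loss in siBoth. CCND1, cyclin D1, differed by -0.35. With GC and length correction CDK6 and CCND3 were no longer called, at -0.45 and 0.45.

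**Figure D3:**
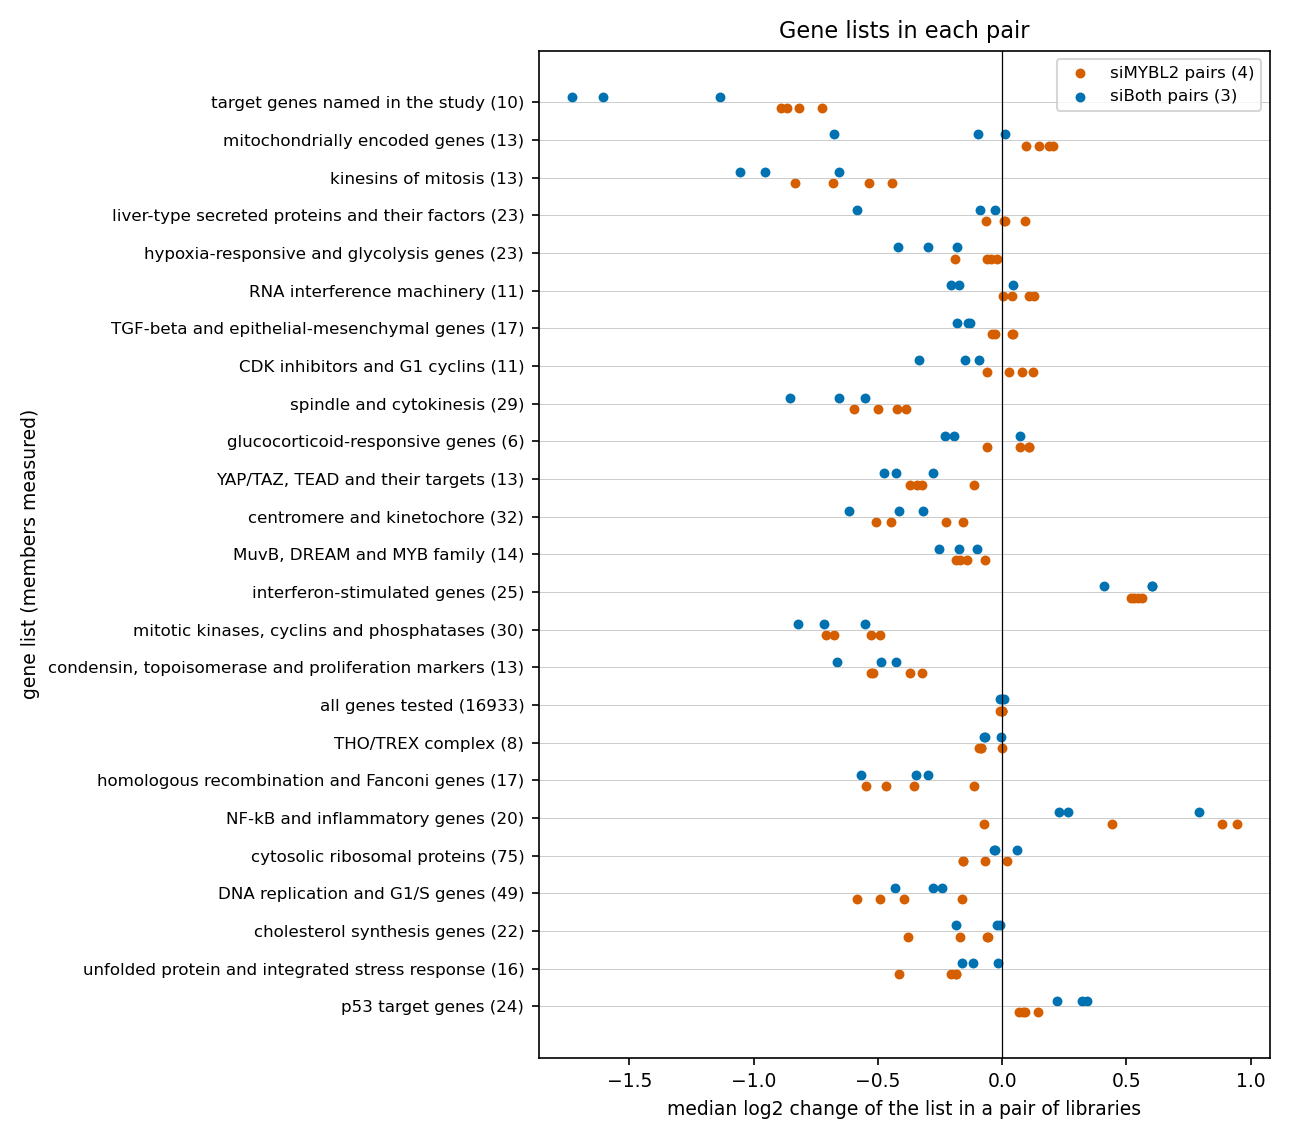
Median log2 change of each gene list in each pair of libraries, with the members measured in brackets. Orange points are the 4 siMYBL2 pairs and blue points the 3 siBoth pairs, sorted by the median difference. The 10 targets named in the study lie lowest in the siBoth pairs, and the p53 targets are at the bottom with all siBoth pairs above all siMYBL2 pairs.

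Targets of p53, which induces cell cycle arrest and apoptosis genes, included higher calls. Of 24 measured, 2 were called higher and 0 lower, beside 0.325% and 1.29% of all genes. By the adjusted p alone 8 passed, all higher, where the background for higher was 2.37%. No member was called without the replicate block or with a block shared by both experiments. The median difference of the 24 was 0.22, with pair medians of 0.07 to 0.14 in siMYBL2 and 0.22 to 0.34 in siBoth. BBC3, which encodes the BH3-only protein PUMA, stood at 20.6, 24.1, 16.3 and 22 in siControl, 23.7, 18.9, 20.0 and 19.2 in siMYBL2, 20.8, 32.1 and 25.8 in siControl_Both and 42.8, 59.9 and 37.3 in siBoth (CPM). Each siBoth library lay above every other library, and the difference was 0.84 ± 0.15 (SE), adjusted p = 0.00267. GDF15, a stress-induced cytokine, changed by 0.06, -0.55, 0.01 and -0.14 in the siMYBL2 pairs and 0.72, 0.69 and 0.19 in the siBoth pairs, a difference of 0.69 ± 0.14 (SE), adjusted p = 0.00615, and FDXR, a mitochondrial ferredoxin reductase, differed by 0.58 ± 0.09 (SE), adjusted p = 0.00142, just under 1.5-fold. After GC and length correction BBC3 stood at 0.62 and GDF15 at 0.51, and neither was called.

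Among the largest lower differences were genes that siMYBL2 left near control level. THOC7, a subunit of the THO complex of mRNA export (chr3:63833870-63863868), stood at 46.6, 46.5, 47.0 and 43.0 in siControl, 44.9, 48.9, 47.3 and 44.9 in siMYBL2, 40.9, 41.6 and 36.6 in siControl_Both and 10.5, 12.7 and 12.3 in siBoth (CPM). The siMYBL2 and siControl libraries overlapped, from 43.0 to 48.9 CPM, whereas the siBoth libraries lay at 10.5 to 12.7 CPM under controls of 36.6 to 41.6 CPM. Its difference was -1.77 ± 0.10 (SE), adjusted p = 1.86e-08, 3.41-fold, and the siFOXM1 effect was -2.15 ± 0.07. THOC7 was the 1 gene called of 8 in the THO/TREX list, beside 1.29% of all genes called lower. In that list THOC3 differed by 0.49 and ALYREF by 0.23. PHEX, a cell-surface endopeptidase of phosphate balance, was a low gene at 5.68, 5.67, 5.75 and 8.33 in siControl, 6.85, 5.71, 5.53 and 6.87 in siMYBL2, 5.49, 2.50 and 2.48 in siControl_Both and 1.40, 1.13 and 1.15 in siBoth. Its pairs changed by 0.27, 0.01, -0.06 and -0.27 in the siMYBL2 pairs and -1.91, -1.10 and -1.06 in the siBoth pairs and its difference was -1.45 ± 0.24 (SE), adjusted p = 0.0018. DESeq2 gave no adjusted p for it. Its siFOXM1 effect was -1.14 ± 0.13.

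Another set of large differences had a siFOXM1 effect near 0 (HGF and AGTR1) or above it (USH1C). None of HGF, AGTR1 and USH1C was called without the replicate block or with a block shared by both experiments. HGF, the ligand of the MET receptor, stood at 18.7, 15.1, 10.3 and 27.1 in siControl, 21.8, 17.0, 9.59 and 31.6 in siMYBL2, 19.8, 2.92 and 5.28 in siControl_Both and 5.38, 1.42 and 3.38 in siBoth (CPM). The siControl_Both libraries spread from 2.92 to 19.8 CPM, so groups overlapped in level, but each siBoth library lay below the control of its own number. Its difference was -1.48 ± 0.21 (SE), adjusted p = 0.000691, against a siFOXM1 effect of 0.07 ± 0.08. AGTR1, the type 1 receptor of angiotensin II, changed by 1.04, 0.64, 0.93 and 0.85 in the siMYBL2 pairs and -0.96, -0.29 and -0.31 in the siBoth pairs. It lay above control in each siMYBL2 pair and below control in each siBoth pair, with a difference of -1.43 ± 0.15 (SE), adjusted p = 2.94e-05 and a siFOXM1 effect of -0.03 ± 0.07. USH1C, which encodes the scaffold protein harmonin, changed by 0.83, 0.87, 1.18 and 1.02 in the siMYBL2 pairs and -0.89, 0.30 and -0.46 in the siBoth pairs, a difference of -1.38 ± 0.22 (SE), adjusted p = 0.00121. The second siBoth pair lay above control and the other two below. Its siFOXM1 effect was 0.29 ± 0.10. The siFOXM1 and siMYBL2 libraries share their controls.

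**Figure D4:**
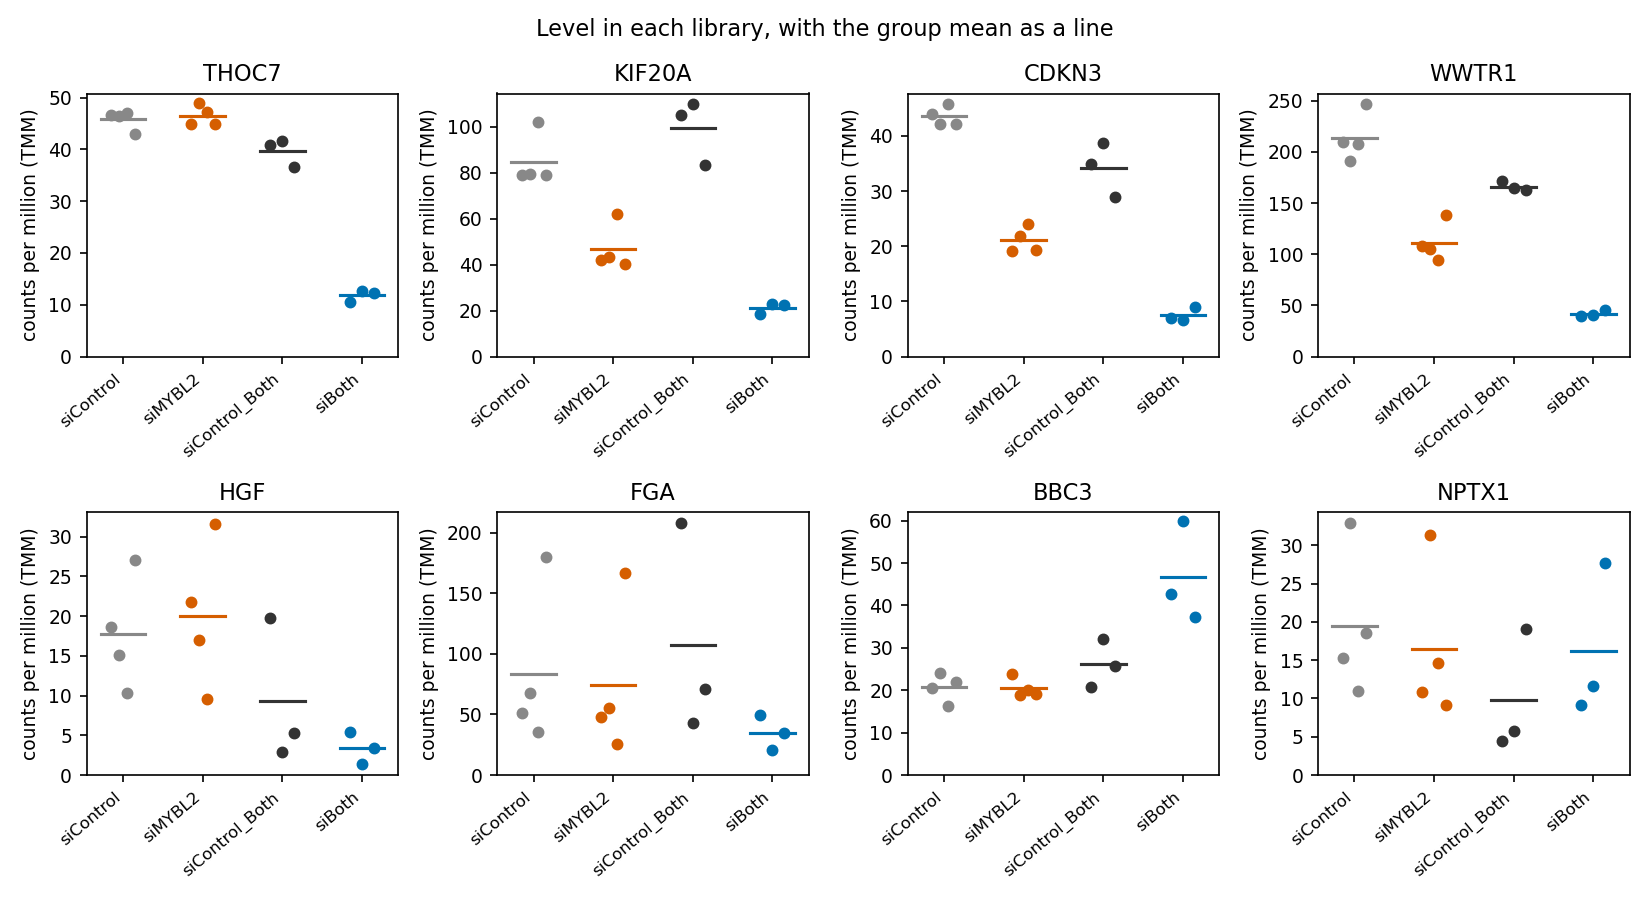
CPM in each library for 8 genes, on axes that start at 0, with 1 point per library and the group mean as a line. THOC7 is low in siBoth while siMYBL2 overlaps with siControl, KIF20A, CDKN3 and WWTR1 are below control in siMYBL2 and lower still in siBoth, HGF and FGA vary widely between control libraries, BBC3 is highest in siBoth, and NPTX1 overlaps between all groups.

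WWTR1, which encodes the YAP-related coactivator TAZ, lay below control in siMYBL2, siFOXM1 and siBoth. It stood at 209.8, 191, 208 and 247 in siControl, 108, 105, 94.1 and 138 in siMYBL2, 171, 164 and 163 in siControl_Both and 39.2, 40.2 and 45.4 in siBoth (CPM), with no overlap between siMYBL2, siBoth and either control. Its log2 effects were -0.95 in siMYBL2, -1.73 in siFOXM1 and -2.0 in siBoth, and the difference was -1.05 ± 0.09 (SE), adjusted p = 3.51e-06. Of 13 genes of the YAP/TAZ list WWTR1 was the 1 called, beside 1.29% of all genes called lower. TEAD1, a DNA-binding partner of TAZ, differed by -0.48 and the target CCN2 by -0.43, both past the adjusted p alone. FKBP5, a cochaperone of the glucocorticoid receptor, changed by 0.08, 0.10, -0.01 and 0.31 in the siMYBL2 pairs and -1.15, -0.64 and -0.66 in the siBoth pairs, a difference of -0.93 ± 0.12 (SE), adjusted p = 0.000171 with a siFOXM1 effect of -1.16. It was the 1 gene called of 6 glucocorticoid-responsive genes measured, beside the same share of all genes. Among these SGK1 differed by 0.39 and TSC22D3 by -0.31.

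The 3′ UTRs of the lower genes were examined for 3 words of 7 bases that an earlier analysis of the single knockdowns in this series had pointed to. The words were chosen with those results known, and siFOXM1 and siMYBL2 share their controls, so the counts are a description. Of the tested genes, 13697 had a 3′ UTR of at least 30 bases in the canonical transcript (GENCODE V44). GTGTTTA, read on the transcript strand, occurred in 2372 of them (17.3%). It was held by 101 of the 213 genes called lower (47.4%) and by 0 of the 43 called higher. By contrast, CCTTACA was held by 27 of the 213 (12.7%; 8.56% of all 3′ UTRs) and ACGCCCA by 15 (7.04%; 4.58% of all). TAAACAC, the reverse complement of GTGTTTA, was held by 43 of the 213 (20.2%; 12.9% of all).

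Sites of GTGTTTA are shown for 8 of the lower genes, so that the word can be seen in its place. Each window is taken from the GENCODE V44 transcript sequence, 5′ to 3′, with the word in capitals and its position given in hg38.
THOC7, chr3:63834059-63834087, minus strand: atgaccataatGTGTTTAaaatgtggtat
WWTR1, chr3:149519427-149519455, minus strand: ctagatttcaaGTGTTTAaaataattcta
WWTR1, chr3:149518152-149518180, minus strand: atggaccctttGTGTTTActaatagataa
NECAP1, chr12:8096559-8096587, plus strand: ggctgacctcaGTGTTTAcaaattcagaa
NECAP1, chr12:8096697-8096725, plus strand: caccctcttgtGTGTTTAcatgtctcttt
NECAP1, chr12:8096861-8096889, plus strand: agtctataggaGTGTTTAatttcttgcag
RMND5A, chr2:86773726-86773754, plus strand: ctccccgccatGTGTTTAatattcctcct
RMND5A, chr2:86774018-86774046, plus strand: cagcaggctgcGTGTTTAagaatttcatt
GJA1, chr6:121448955-121448983, plus strand: gggccaatatgGTGTTTAcattatataat
EDEM3, chr1:184692851-184692879, minus strand: tatggtgacctGTGTTTAaaaaaaaaagt
FKBP5, chr6:35575740-35575768, minus strand: aggacagaacaGTGTTTAatgtaaagttt
NEURL1B, chr5:172689175-172689203, plus strand: gaggtaaggaaGTGTTTAtcttctaaaaa

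The log2 effects of these genes were, in the order siMYBL2, siFOXM1 and siBoth, 0.72, -1.17 and -0.34 for NECAP1, an adaptor of clathrin coats, and 0.54, -1.40 and -0.75 for RMND5A, a subunit of the CTLH ubiquitin ligase. For GJA1, the gap junction protein connexin 43, they were 0.06, -0.92 and -0.88, and for EDEM3, a mannosidase-like protein of ER-associated degradation, 0.11, -0.60 and -0.83. These 4 genes, chosen after their values were seen, thus lay above control in siMYBL2 and below it in both FOXM1-siRNA groups. The word was not found in the 3′ UTRs of KIF20A, CDKN3, AGTR1 and USH1C. HGF and PHEX hold 1 site each, and the siFOXM1 effect of HGF was near control level. Over all genes with GTGTTTA the median difference was -0.14, against 0.02 without it. Genes with its reverse complement had a median of -0.10. With CCTTACA it was -0.08 and with ACGCCCA it was -0.01. Median 3′ UTRs of these 3 sets were 3113.5, 3352 and 3124.5 bases, in the same order. Whether the shift is specific to the first word was not tested. Genes with 1 site of GTGTTTA (1906) had a median of -0.12 and genes with 2 or more (466) of -0.21, and 38 of the latter were called lower (8.15%). Median 3′ UTRs were 2920.5 bases with 1 site and 4540.5 with 2 or more, and these groups were not compared at equal length. Genes with the word have longer 3′ UTRs, with a median of 3170 bases against 1053 without. In 4 equal classes of 3′ UTR length, from the shortest to the longest, the median with the word was 0.02, -0.05, -0.11 and -0.17, and without it 0.07, 0.04, -0.02 and -0.08. When the fit was corrected for GC content and transcript length, the median with the word was -0.04 and 47 of 142 lower genes held it (33.1%). No mature miRNA among 2370 in the RefSeq table has bases 2 to 8 complementary to any of the 3 words. Shorter matches to miRNA seeds were not searched.

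**Figure D5:**
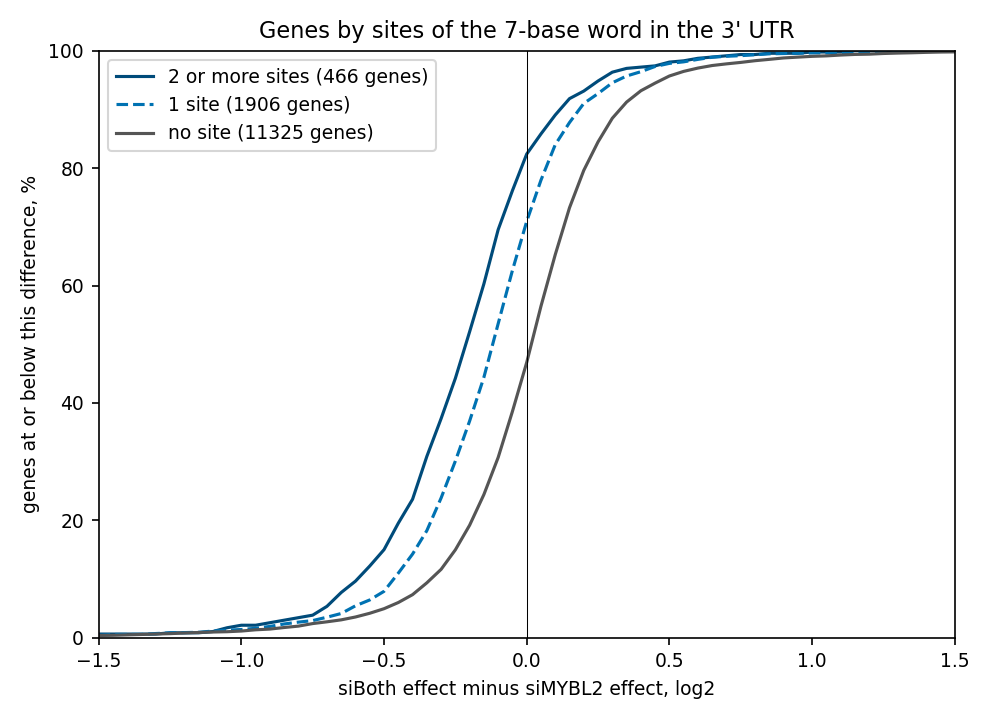
Cumulative share of genes (y axis, percent) by the log2 difference between the siBoth and the siMYBL2 effect (x axis), for genes with 2 or more, 1 or no sites of the 7-base word in the 3′ UTR. The curve of genes with 2 or more sites (466 genes, median -0.21) lies to the left of that with 1 site (1906 genes, median -0.12), which lies to the left of the curve with none (11325 genes, median 0.02). Median 3′ UTR lengths are 4540.5, 2920.5 and 1053 bases, in the same order.

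Promoters were classed by the ChIP-seq peaks of MYBL2 and FOXM1 that the study lists, within 1 kb of the start of the gene. Of 136 tested genes with both peaks 9 were called lower (6.62%), and of 71 with a FOXM1 peak alone 6 (8.45%). Of 305 genes with a MYBL2 peak alone 3 were called lower (0.984%), and of 16421 with no peak 201 (1.22%). Among the 3 were FOXM1, itself a target of the added siRNA, and MT-ATP8, a mitochondrially encoded gene. No gene of the 3 classes with a peak was called higher, beside 0.325% of all genes. At that share few calls would fall in classes of this size. The 9 were CCNA2, CCNF, CDKN3, CENPA, CKAP2, GAS2L3, NEK2, NEURL1B and RRM2, and the 6 were ASPM, ENC1, GPSM2, KIF20A, TNFAIP8L1 and TROAP. The study had chosen CCNA2, CCNF, CDKN3, CENPA and NEURL1B as targets by a bound promoter and lower expression in these knockdowns. CKAP2, NEK2, RRM2, ASPM, KIF20A and TROAP are calls already given. These shares are therefore no independent evidence. Medians of the difference in these classes were small, -0.09 with both peaks, 0.03 with a FOXM1 peak alone and 0.01 with a MYBL2 peak alone. Most lower genes thus had no listed peak at the promoter, THOC7 and WWTR1 among them.

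A pair of lists was drawn up after the called genes were seen, so it carries no test. Liver-type secreted proteins and their factors had 23 members measured, 8 of them lower and 0 higher, beside 1.29% and 0.325% of all genes. None was called without the replicate block or with a block shared by both experiments, and the median, -0.25 with all libraries, was -0.04 without siBoth replicate 1. FGA, the fibrinogen alpha chain, stood at 51.4, 67.3, 35.2 and 180.2 in siControl, 48.0, 55.5, 25.6 and 167 in siMYBL2, 208, 43.2 and 71.3 in siControl_Both and 49.8, 20.5 and 34.4 in siBoth (CPM). Control libraries of 1 group differed up to several-fold, yet each siBoth library lay below the control of its own number. Its pairs changed by -0.10, -0.28, -0.46 and -0.11 in the siMYBL2 pairs and -2.06, -1.07 and -1.05 in the siBoth pairs, a difference of -1.20 ± 0.18 (SE), adjusted p = 0.000737, and FGG and FGB, the other chains, differed by -1.21 and -1.12. CP, the copper carrier ceruloplasmin, differed by -0.98 ± 0.13 (SE), adjusted p = 0.00047. F5, coagulation factor V, changed by 1.01, 0.92, 1.33 and 1.15 in the siMYBL2 pairs and -0.62, 0.34 and -0.01 in the siBoth pairs, so that a gain in siMYBL2 was missing in siBoth (-1.29 ± 0.18 (SE), adjusted p = 0.00064). Effects of the FOXM1 knockdown alone were 0.27 for FGA, -0.09 for CP and -0.10 for F5. Of 23 hypoxia-responsive and glycolysis genes 5 were lower and 0 higher, beside the same shares of all genes. There were 2 without siBoth or siControl_Both replicate 1 and 2 with DESeq2, 3 without replicate 3 of either and without replicate 1, 2 or 3 of siMYBL2 or siControl, and 0 without the block or with the shared block. CA9, carbonic anhydrase IX, stood at 4.47, 2.91, 2.40 and 30.7 in siControl, 6.29, 2.52, 3.44 and 37.8 in siMYBL2, 45.3, 3.72 and 29.7 in siControl_Both and 7.01, 3.38 and 14.6 in siBoth, with overlapping pairs and a difference of -1.79 ± 0.37 (SE), adjusted p = 0.00703 that DESeq2 did not call. HK2, hexokinase 2, differed by -0.89 ± 0.19 (SE), adjusted p = 0.00956 and SLC2A3, the glucose transporter GLUT3, by -0.73 ± 0.13 (SE), adjusted p = 0.00327. The SLC2A3 call was lost without the first double-knockdown pair.

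The 7 genes described here had large higher differences and siMYBL2 estimates below control, from -0.92 (CAVIN2) to -0.06 (LCN2). CAVIN2, a coat protein of caveolae, changed by -0.80, -0.70, -1.14 and -1.04 in the siMYBL2 pairs and 0.09, -0.05 and -0.24 in the siBoth pairs, a difference of 0.86 ± 0.15 (SE), adjusted p = 0.00225. KLHDC7A lay near control in siMYBL2 (-0.03, 0.00, -0.24 and -0.04) and above it in the siBoth pairs (0.65, 1.03 and 0.92), a difference of 0.96 ± 0.14 (SE), adjusted p = 0.000725. HCN3, a cation channel gated by hyperpolarization, changed by -0.71, 0.04, -0.70 and -0.07 in the siMYBL2 pairs and 0.35, 0.73 and 0.45 in the siBoth pairs (0.88 ± 0.18 (SE), adjusted p = 0.00654), and NPTX1, neuronal pentraxin 1, by -0.49, -0.07, 0.41 and -1.01 in the siMYBL2 pairs and 1.05, 0.99 and 0.54 in the siBoth pairs (1.09 ± 0.24 (SE), adjusted p = 0.0115). The calls of HCN3 and NPTX1 were lost without the second double-knockdown pair.

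CHAC1, which degrades glutathione and is induced in the integrated stress response, had 1 siControl library far above the rest. It stood at 4.18, 5.86, 2.93 and 17.2 in siControl, 3.89, 3.81, 2.90 and 3.84 in siMYBL2, 7.05, 10.9 and 13.3 in siControl_Both and 12.4, 13.2 and 13.8 in siBoth (CPM), and the siControl replicate 4 value was the highest of all. Its difference was 1.23 ± 0.35 (SE), adjusted p = 0.0403 with all libraries and 0.64 without siControl replicate 4, not called, and DESeq2 did not call it with all libraries. The call was lost in 10 of the 14 fits that left out 1 library, and after GC and length correction at 1.08. CHAC1 was the 1 gene called of 16 in the unfolded protein and stress list, beside 0.325% of all genes called higher. In that list DDIT4 differed by 0.33 and ATF4 by 0.37. KRT4, a keratin of stratified epithelium, differed by 1.12 ± 0.31 (SE), adjusted p = 0.0354 at levels that were unequal between the experiments, 13.1, 25.6, 3.88 and 23.2 in siControl, 9.46, 14.1, 1.39 and 11.4 in siMYBL2, 1.51, 0.806 and 0.843 in siControl_Both and 1.59, 1.46 and 0.660 in siBoth. LCN2, a siderophore-binding protein, changed by 0.05, -0.27, 0.18 and -0.23 in the siMYBL2 pairs and 1.48, 0.40 and 0.45 in the siBoth pairs (0.86 ± 0.21 (SE), adjusted p = 0.0199). Both calls were lost without siBoth replicate 1 and without siControl replicate 4, and after GC and length correction, at 1.01 for KRT4 and 0.72 for LCN2. DESeq2 did not call LCN2.

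Of 20 NF-kB and inflammatory genes 1 was called lower and 0 higher, beside 1.29% and 0.325% of all genes. BIRC3, an inhibitor of apoptosis and NF-kB target, stood at 116, 175, 109 and 54.4 in siControl, 280.4, 274, 264 and 105 in siMYBL2, 204, 265 and 195 in siControl_Both and 307, 289 and 219.8 in siBoth (CPM). It lay above control in all 7 pairs, with smaller gains in siBoth (0.59, 0.13 and 0.17) than in siMYBL2 (1.27, 0.65, 1.28 and 0.94) and a difference of -0.74 ± 0.14 (SE), adjusted p = 0.00346, lost after GC and length correction at -0.52. NFKB1 and NFKBIA differed by 0.30 and 0.22. None of 25 interferon-stimulated genes measured was called, and the list lay above control by a median of 0.58 in siMYBL2 and 0.56 in siBoth. Without siBoth replicate 1, 1 was called lower and 3 higher. USP18 differed by 0.55 and OAS1 by 0.47.

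None of 17 TGF-beta and epithelial-mesenchymal genes was called. By the adjusted p alone 4 passed, all lower, beside 4.8% of all genes, among them TGFBR2 (-0.45), TGFBR1 (-0.31) and VIM (-0.33). The RNA interference machinery had 4 of 11 genes past the adjusted p alone, all lower, beside the same 4.8% of all genes, and none called. TNRC6B stood at -0.42, AGO2, the slicing Argonaute, at -0.39 and TNRC6A at -0.31. None of the genes named from these lists passed the adjusted p without the replicate block or with a block shared by both experiments. TNRC6B, AGO2, TNRC6A and TGFBR1 also did not pass after GC and length correction. None of 75 cytosolic ribosomal protein genes was called, RPS19, RPL28 and RPL41 differed by 0.26, 0.21 and 0.21, and the median was 0.09. Of 13 mitochondrially encoded genes 1 was called lower, beside 1.29% of all genes. It was MT-ATP8 at -1.01 ± 0.26 (SE), adjusted p = 0.0246 in edgeR's quasi-likelihood test, and the median of the list was -0.47. The siBoth pairs of MT-ATP8 changed by -0.09, -1.80 and -0.41, and MT-ND4L, MT-CYB and MT-ND6 differed by -0.50, -0.53 and -0.47. The list was lowest in the pair that holds the library with the low mitochondrial share, and without siBoth replicate 2 its median was -0.20 and no member was called. Without siBoth replicate 1 the median was -0.62 and 9 were called lower, and without replicate 3 it was -0.54 with 6. No member was called without replicate 3 or 4 of siMYBL2 or siControl, without the replicate block, or by DESeq2.

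No marker of another cell type was called. The fibroblast genes LUM, COL1A1 and COL3A1 differed by 0.45, 0.09 and -0.14, CD14 of monocytes by 0.05, and the endothelial genes CDH5, PECAM1 and VWF by 0.72, -0.07 and -1.53 with SEs of 0.47, 0.33 and 1.03. Among the epithelial markers KRT7 differed by 0.40, past the adjusted p alone, CDH1 by -0.34 and KRT8 by 0.07. Of the 37 called genes chosen as set out in the methods, exons of HCN3 (13.1%), CCNF (11.8%), CP (20.1%) and CA9 (35.7%), besides FOXM1, share over 10% of their bases with a gene of the opposite strand. Those of CCNA2, WWTR1, CAVIN2, NEURL1B and KIF20A share 5.35 to 9.24%, and shares under 5% are not given.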

How the data were processed

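RNA-seq was run by the authors on poly(A)-captured RNA of A549 cells. Per the labels and the study's methods they trimmed reads with Trim Galore, aligned them to hg38 with STAR and used HTSeq to count read pairs on the genes of GENCODE V29. The deposited files thus hold raw counts per gene. Lines that name no gene (not aligned, ambiguous, no feature, not unique, low quality) held 18.5 to 26.2% of read pairs and were left out. Gene names, positions and 3′ UTRs were taken from GENCODE V44 on hg38, in which 58207 of 58721 identifiers matched.

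Counts of the 14 libraries were filtered with edgeR's filterByExpr, scaled by TMM and fitted with edgeR 4.0.16 (R 4.3.3) by quasi-likelihood, with 7 replicate blocks (the replicate number within each experiment), a siMYBL2 term and a siBoth term. The contrast was siBoth less siMYBL2, with 5 residual degrees of freedom. The SE is the size of the difference over the square root of F. Two-sided p-values were adjusted by Benjamini-Hochberg over 16933 genes. Pair changes are differences of log2 CPM with a prior count of 2. siFOXM1 effects come from a fit of their own on siFOXM1 and siControl and are given only beside the others. The fit was tested on simulated data.

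Deviations from the group mean correlated between same-numbered libraries by 0.57 to 0.88 (siMYBL2 with siControl, 4 pairs) and by 0.55 to 0.69 (siBoth with siControl_Both, 3 pairs), over 11539 genes, so the numbers were taken to pair the libraries. The study calls its replicates biological; the labels do not say that they were separate cultures, and p-values then measure the spread between these libraries.

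Named genes are MYBL2 and FOXM1, the 10 targets the study names, the 8 genes with the largest difference in each direction among those called that averaged 100 counts or more, with no overlap between siMYBL2 and siBoth pairs, and up to 3 members of each gene list with the lowest adjusted p. Some genes that this rule chose are not reported here. The groups, lists and words were chosen with earlier results of these data known, and the liver-type and hypoxia lists and their members, GJA1, NECAP1, RMND5A, EDEM3 and MT-ATP8 after the called genes were seen. A call needs an adjusted p under 0.05 and 1.5-fold.

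Alternatives were DESeq2 1.42.0, other scalings, filters, blocks and thresholds, a correction for GC content and length, and leaving out each library. The depth of 23065227 to 28880535 counted pairs limits low genes most. FDI-6 libraries were not used here.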

Additional observations from a re-analysis of the deposited data

Results flagged for a closer look

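The effects of siBoth and siMYBL2 differed by the test of the difference itself for the named genes that follow, given as log2 differences from edgeR's quasi-likelihood fit with the replicate block. Lower in siBoth were FOXM1 (-2.64), CENPA (-0.80), NEURL1B (-1.59), CCNF (-0.72), CDKN3 (-1.13), CCNA2 (-0.75), THOC7 (-1.77), HGF (-1.48), PHEX (-1.45), AGTR1 (-1.43), USH1C (-1.38), KIF20A (-1.35), NEK2 (-0.84), TROAP (-0.88), CKAP2 (-0.59), ASPM (-0.66), RRM2 (-0.62), CDK6 (-0.68), BIRC3 (-0.74), WWTR1 (-1.05), FKBP5 (-0.93), CP (-0.98), F5 (-1.29), FGA (-1.20), SLC2A3 (-0.73), CA9 (-1.79), HK2 (-0.89). Higher in siBoth were CHAC1 (1.23), KRT4 (1.12), NPTX1 (1.09), KLHDC7A (0.96), HCN3 (0.88), CAVIN2 (0.86), LCN2 (0.86), CCND3 (0.59), BBC3 (0.84), GDF15 (0.69).

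Single libraries stood far from the rest of their group of 4 for some of these genes, by Dixon's criterion on CPM. It was applied to 192 groups (siMYBL2 and siControl for each named gene), of which chance alone flags about 1 in 20. The siControl replicate 4 library was set apart for THOC7 (43.0), PHEX (8.33), USH1C (12.7), RAD51AP1 (28.5), CCND3 (151), TEAD1 (298), CDH1 (88.3), F5 (18.6), SLC2A3 (250.0), CA9 (30.7), in CPM. The siMYBL2 replicate 4 library was set apart for USH1C (25.8), BIRC3 (105), CDH1 (78.3), SLC2A3 (306), CA9 (37.8), HK2 (21.7), in CPM. KIF14 stood at 90.9 CPM in siControl replicate 1. The siControl replicate 3 library was set apart for CCNA2 (120.0), KIF20A (102), in CPM. LCN2 stood at 24.5 CPM in siMYBL2 replicate 1. BORA stood at 6.49 CPM in siMYBL2 replicate 2. The siMYBL2 replicate 3 library was set apart for KIF20A (62.0), CHAC1 (2.90), RB1 (66.1), in CPM. The part of these libraries in the differences above was measured by leaving each out, with the results under the next heading.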

How the results depend on the processing

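The median difference over all genes stayed within 0.02 of 0 in all fits. Of 274 calls (219 lower, 55 higher), there were 10 (9 lower, 1 higher) when glmTreat tested against 1.5-fold, 26 (26 and 0) without the replicate block, 79 (70 and 9) with a block shared by both experiments, 178 with GC content and length corrected in the fit with the block (27 higher) and 1213 (812 and 401) with no fold threshold. DESeq2 with the block called 28 higher and gave no adjusted p for PHEX and 5 cell type markers. RLE and upper-quartile scaling, both filters on low counts and the fit of all 18 siRNA libraries moved these counts by less than 1.5 times. GC content and length correction moved the medians of the words by more than the spread between pairs, to -0.04 for GTGTTTA, 0.02 for CCTTACA and 0.04 for ACGCCCA.

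Leaving out 1 library also removes what its partner in the block tells. The calls then ranged from 178 to 358 in all, 154 to 257 lower and 21 to 104 higher. They were 178 without siBoth replicate 2. Higher calls were 104 and 101 without siBoth and siControl_Both replicate 1, 24 and 21 without their replicate 2, and 35 without replicate 1 or 4 of siControl or siMYBL2. Of siBoth or siControl_Both, leaving out replicate 2 ended the calls of ASPM, CCND3, CHAC1, CKAP2, GDF15, HCN3, KRT4, NPTX1 and RRM2, replicate 1 those of CHAC1, KRT4, LCN2 and SLC2A3, and replicate 3 those of CCND3 and CHAC1. Of siMYBL2 or siControl, replicate 2 ended those of CHAC1, CKAP2, GDF15, LCN2 and RRM2, replicate 3 those of CCND3, CKAP2, KRT4 and RRM2, and replicate 4 those of CCND3, CHAC1, KRT4 and LCN2. Of the 37 named genes called, 26 kept their call in all 14 of these fits.

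None of the genes whose difference turned direction was called. BRCA2 turned to 0.047, KRT8 to -0.072 and CD14 to -0.11 with GC and length correction, and PECAM1 to 0.0013 with the shared block. When single libraries were left out, KRT8 ranged from -0.011 to 0.17, COL1A1 from -0.17 to 0.23, COL3A1 from -0.64 to 0.24, CD14 from -0.11 to 0.28, PECAM1 from -0.39 to 0.32 and VWF from -2.54 to 0.60. The cause of these shifts was not tested.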

Other observations

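Further genes called lower, chosen after their values were seen, are given here as values with no explanation. ERBB3, a receptor of the epidermal growth factor family, had log2 effects of 0.59 in siMYBL2, -0.70 in siBoth and 0.10 in siFOXM1, with a difference of -1.29 ± 0.23 (SE), adjusted p = 0.00235. ANKS4B, an ankyrin repeat protein that binds harmonin in microvilli, had effects of 0.12, -1.08 and 0.28 in the same order, and ENTPD2, an ectonucleotidase, of 0.15, -1.18 and 0.10. The siFOXM1 effect passed an adjusted p under 0.05 in ANKS4B and did not in ERBB3 or ENTPD2. None of ERBB3, ANKS4B and ENTPD2 was called lower without the replicate block or with a block shared by both experiments.

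SUZ12, a core subunit of the Polycomb repressive complex PRC2, and TFAM, the packaging factor of mitochondrial DNA, both hold GTGTTTA in their 3′ UTRs. Effects of SUZ12 were -0.17 in siMYBL2, -0.85 in siBoth and -1.32 in siFOXM1, and those of TFAM were 0.05, -0.73 and -0.72. The differences were -0.68 ± 0.07 (SE), adjusted p = 4.76e-05 for SUZ12 and -0.78 ± 0.10 (SE), adjusted p = 0.000171 for TFAM in edgeR's quasi-likelihood test.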
